A study of Mus musculus with 2 samples.

Results

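The 10 genes described here are the mouse MHC class II chains H2-Aa, H2-Ab1 and H2-Eb1, the invariant chain Cd74, the class II transactivator Ciita, the peptide loading genes H2-DMa, H2-DMb1 and H2-DMb2, and the loading inhibitor genes H2-Oa and H2-Ob. They were taken by symbol, and each was found once among the 32589 genes of both count matrices. The genes were chosen by their measured levels, which earlier results of these data showed lower in BiDT than in Ctrl myeloid cells, so every difference between the groups given below is a description and carries no test. The question put to the data was whether that lower level lay within cell subsets or in the mix of subsets.

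The series holds 2 single-cell RNA-seq libraries of living CD45+ leukocytes, sorted by flow cytometry from MC38 tumours (a mouse colon adenocarcinoma line grown as a transplant) on day 19 after inoculation. One library came from tumours given BiDT and the other from the control group, Ctrl. The labels do not spell out BiDT, while the series title names a fusion protein of an anti-TIM3 antibody and interferon; dose, schedule, the treatment of the control tumours, and the strain and age of the mice were not stated there. Each library pooled 5 biological replicates in batch 1, so there is 1 library per group: no test between groups exists, cells are not replicates, and the 95% intervals below cover the counting error of molecules only.

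MHC class II molecules are pairs of an alpha and a beta chain that present peptides from endocytosed proteins to CD4 T cells; dendritic cells carry them constitutively, whereas monocytes and macrophages gain them on activation, above all by interferon gamma. New pairs assemble on the invariant chain Cd74, whose last fragment, CLIP, is exchanged for antigenic peptide by H2-DM, and H2-DO restrains H2-DM. Ciita does not bind DNA itself but is recruited to factors already sitting on the X and Y boxes shared by class II promoters.

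These promoter boxes are shown as a feature outside the measured values that most members have in common. RefSeq promoters (build GRCm38.p6, 250 bases before to 50 bases after each start) were matched to the members by symbol. Promoters on 1 chromosome were left out of this match, though not of the shares over all promoters. The match held 7 of the 10 members, all but H2-Ab1, Cd74 and Ciita, which are not thereby shown to lack these letters. The letters GATTGG, the core of the Y box, were searched on both strands and were present in 16.1% of all 32851 promoters. They were present in 7 of the 8 promoters listed for the matched members; H2-DMa has a pair of listed promoters, 1 of them without these letters. The letters AAC starting 25 to 32 bases before GATTGG on the same strand, a spacing chosen after these promoters had been read, were present in 1.62% of all promoters and in 6 of the 8 listed for the members, all but those of H2-DMa. A match is a description of the letters and not a site of binding. In the lines below, written on the strand of each gene, capitals mark AAC and GATTGG; the windows lie at chr17:34287861-34287912 for H2-Aa on the minus strand and, on the plus strand, at chr17:34305768-34305818 for H2-Eb1, chr17:34153089-34153140 for H2-DMb1, chr17:34145118-34145169 for H2-DMb2, chr17:34092295-34092346 for H2-Oa and chr17:34238810-34238858 for H2-Ob.
H2-Aa: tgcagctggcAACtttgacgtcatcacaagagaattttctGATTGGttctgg
H2-Eb1: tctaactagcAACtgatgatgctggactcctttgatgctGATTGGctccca
H2-DMb1: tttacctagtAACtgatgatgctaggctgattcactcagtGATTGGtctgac
H2-DMb2: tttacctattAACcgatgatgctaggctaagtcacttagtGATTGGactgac
H2-Oa: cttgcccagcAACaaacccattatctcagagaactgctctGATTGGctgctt
H2-Ob: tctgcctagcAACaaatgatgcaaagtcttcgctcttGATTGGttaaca
The distance from the marked AAC to GATTGG was 30 bases in H2-Aa, H2-DMb1, H2-DMb2 and H2-Oa, 29 bases in H2-Eb1 and 27 bases in H2-Ob. H2-Oa held 2 AAC within the range of spacing, of which only the first is in capitals and measured here.

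The BiDT library held 130313537 UMIs (unique molecules counted) in 34996 barcodes, and the Ctrl library 211047063 UMIs in 34310 barcodes. After filters, 31709 BiDT cells and 30415 Ctrl cells were kept, with median depths of 2619 and 4172 UMIs. The libraries had 713 barcode sequences in common. Subsets were gated on marker genes, none of them a member, in cells thinned to 1000 UMIs each, which left 13888 BiDT and 19520 Ctrl cells in 12 subsets of the dendritic cell (597 and 1190 cells), monocyte (3198 and 4355) and macrophage (10093 and 13975) classes. Levels are CPM, the UMIs of a gene in every 1000000 UMIs of the summed cells of a unit, a log2 ratio is BiDT over Ctrl, and "1.5 times" is the fold used for counts of genes, among genes with at least 50 UMIs over both libraries. Some gate genes themselves stood at other levels in the pooled gated cells, with Ly6c2 at 1234 CPM in BiDT and 264 in Ctrl, Cxcl9 at 191 and 455, and Mgl2 at 135 and 498. The summed T cell, NK cell, neutrophil, B cell and stromal markers in those cells were 72.1, 86.1, 175, 3.55 and 39.8 CPM in BiDT and 30.3, 23.4, 96.4, 2.64 and 42.3 CPM in Ctrl, and Malat1 took 0.923% of UMIs in BiDT and 0.405% in Ctrl; the part of these in the results was not tested.

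Over all gated myeloid cells, the summed classical chains H2-Aa, H2-Ab1 and H2-Eb1 were at 5813 CPM in BiDT and 11504 CPM in Ctrl, a log2 ratio of -0.98 (95% interval -0.99 to -0.98). The ratio was -0.30 in dendritic cells, -1.21 in monocytes and -0.97 in macrophages. Of the 10 members, 9 were at least 1.5 times lower in BiDT in the pooled cells, where 9.69% of all genes tested were; the member short of that fold was H2-DMb1. Among the members that passed, H2-Oa in monocytes and macrophages was no higher than in T or NK cells, and H2-Ob in monocytes no higher than in neutrophils. Both cell types are used below as measures of free RNA, and the choice between them changes the reading in Ctrl. The median log2 ratio was -0.91 over the members and 0.09 over all genes tested. TMM scaling, which sets the bulk of genes level, would lower every log2 ratio given here by 0.19 over the gated cells, 0.12 in dendritic cells, 0.04 in monocytes and 0.22 in macrophages. In macrophages 10 of 10 members passed that fold downwards (10.6% of all genes did, and 19.8% passed it upwards) and in monocytes 9 of 10 (9.11% and 10.5% of all genes), whereas in dendritic cells 1 of 10 did, H2-Oa (7.1% and 12.2% of all genes).

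**Figure D1:**
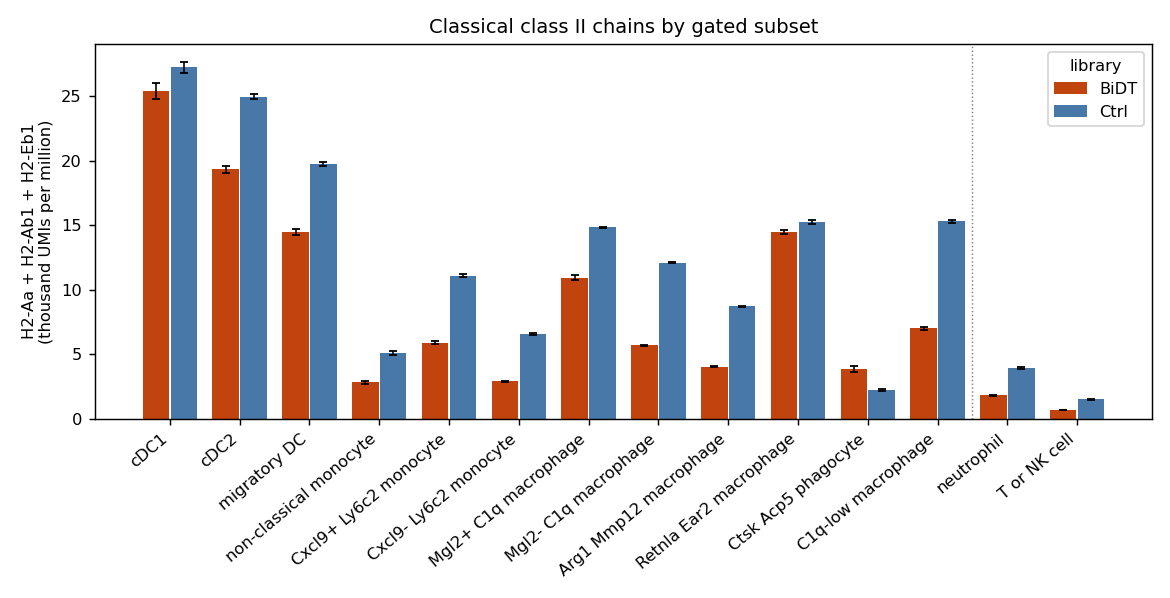
Summed H2-Aa, H2-Ab1 and H2-Eb1 level (vertical axis, CPM in units of 1000, from 0) in each gated subset and, right of the dotted line, in neutrophils and T or NK cells, for the BiDT and Ctrl libraries; error bars are 95% counting intervals. BiDT and Ctrl are closest in ratio in Retnla Ear2 macrophages and cDC1, BiDT lies furthest under Ctrl in ratio in the Mgl2- C1q, Arg1 Mmp12 and C1q-low macrophages and in Cxcl9- monocytes, and the Ctsk Acp5 phagocytes run the other way.

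Among dendritic cells, cDC1, the subset marked by Xcr1 and Clec9a, had the highest chain level in both libraries, 25375 CPM in BiDT and 27221 CPM in Ctrl (log2 ratio -0.10, interval -0.14 to -0.06), from 62 and 94 cells. In cDC2, marked by Cd209a and Flt3, the chains were at 19323 CPM in BiDT and 24957 CPM in Ctrl (-0.37). In migratory dendritic cells, which express Ccr7 and Fscn1, they were at 14463 CPM and 19745 CPM (-0.45). The difference between libraries was thus smaller in each dendritic cell subset than in the monocytes and most macrophages. The cDC2 gate did not hold the same cells in both libraries: Retnla, a gene of another gate, was at 3080 CPM in its BiDT cells and 209 CPM in its Ctrl cells, and the part of this in the cDC2 values was not tested.

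Monocytes had lower levels. In the Ly6c2 monocytes without a Cxcl9 UMI the chains were at 2897 CPM in BiDT and 6571 CPM in Ctrl (log2 ratio -1.18), and in those with one at 5896 CPM and 11082 CPM (-0.91). Non-classical monocytes, marked by Ace and Adgre4, were at 2819 CPM and 5096 CPM (-0.85). The Cxcl9+ cells stood above the Cxcl9- cells in both libraries, and the BiDT level of the Cxcl9+ cells was below the Ctrl level of the Cxcl9- cells.

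Macrophage subsets differed most among themselves. The Mgl2- C1q macrophages were at 5709 CPM in BiDT and 12076 CPM in Ctrl (log2 ratio -1.08), the Arg1 Mmp12 macrophages at 4049 CPM and 8706 CPM (-1.10), and the C1q-low macrophages at 6998 CPM and 15288 CPM (-1.13). These 3 subsets held most gated macrophages in both libraries, and their ratios lay between -1.13 and -1.08. The Mgl2+ C1q macrophages were at 10938 CPM in BiDT and 14838 CPM in Ctrl (-0.44), but at -0.07 when gates used all UMIs of a cell in place of 1000. That gate also held different Leiden clusters (groups of cells alike over 2000 variable genes, with the members and a list of interferon genes left out). Of its BiDT cells, 43.7% lay in a cluster of 3842 BiDT and 81 Ctrl cells. Of its Ctrl cells, 39.0% lay in one of 113 BiDT and 2323 Ctrl cells and 19.4% in one led by cell cycle genes. The Retnla Ear2 macrophages, named for a pair of genes of tissue-type macrophages, were at 14496 CPM in BiDT and 15234 CPM in Ctrl (-0.07, interval -0.09 to -0.05). Their ratio lay between -0.16 and 0.01 over 11 alternatives and was above 0 in 2 of them. The Ctsk Acp5 phagocytes, with osteoclast genes, were at 3871 CPM in BiDT and 2251 CPM in Ctrl (0.78), from 42 and 115 cells with median depths of 4519 and 12283 UMIs. When each of those cells was thinned to 1000 UMIs the ratio was -0.27, so its direction depends on how cells are weighted. T or NK cells, which set a level for free RNA, reached 17.7% of that subset's chain level in BiDT and 66.7% in Ctrl, and neutrophils 46.9% and 174%, so its Ctrl value lay between these background levels.

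In order of chain level, the BiDT subsets ran cDC1, cDC2, Retnla Ear2, migratory dendritic cells, Mgl2+ C1q, C1q-low, Cxcl9+ monocytes, Mgl2- C1q, Arg1 Mmp12, Ctsk Acp5, Cxcl9- monocytes and non-classical monocytes. Of the 11 pairs of neighbours in that order, 3 had overlapping counting intervals: Retnla Ear2 with migratory dendritic cells, Arg1 Mmp12 with Ctsk Acp5, and Cxcl9- with non-classical monocytes. The Ctrl subsets ran cDC1, cDC2, migratory dendritic cells, C1q-low, Retnla Ear2, Mgl2+ C1q, Mgl2- C1q, Cxcl9+ monocytes, Arg1 Mmp12, Cxcl9- monocytes, non-classical monocytes and Ctsk Acp5, where 1 neighbouring pair overlapped, C1q-low with Retnla Ear2. The highest subset exceeded the lowest 9.0-fold in BiDT and 12.1-fold in Ctrl.

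**Figure D2:**
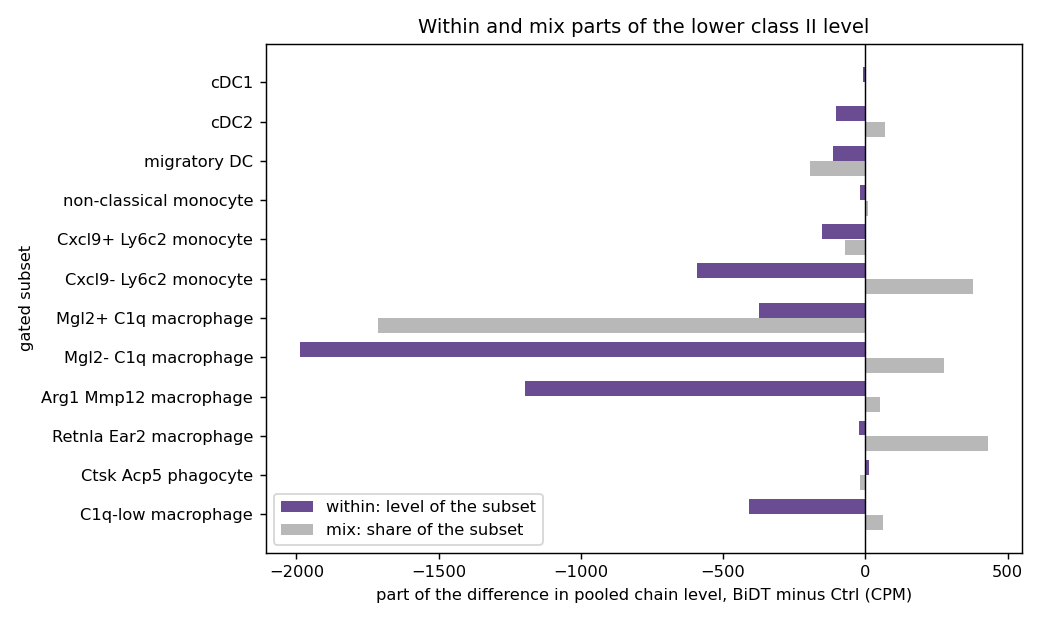
Contribution of each gated subset to the difference in chain level between BiDT and Ctrl (BiDT minus Ctrl, CPM), divided into the part from the level within the subset and the part from the subset's share of UMIs. The within parts of the Mgl2- C1q (-1987 CPM) and Arg1 Mmp12 macrophages (-1195 CPM) and the mix part of the Mgl2+ C1q macrophages (-1712 CPM) are the longest bars.

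The difference of -5691 CPM was divided into a part from levels within subsets and a part from the subsets' shares of UMIs, each weighted by the mean of the 2 libraries. With the 12 gated subsets, the within part was -4970 CPM, or 87.3% of the difference, and the mix part was -721 CPM, or 12.7%. With BiDT levels set on the Ctrl mix the log2 ratio was -0.82 (interval -0.82 to -0.81), against -0.98 as pooled. With Ctrl levels set on the BiDT mix it was -0.09. The largest within parts came from the Mgl2- C1q (-1987 CPM), Arg1 Mmp12 (-1195 CPM) and Cxcl9- monocyte (-594 CPM) subsets. The small mix part was a sum of larger parts of opposite sign: the Mgl2+ C1q macrophages, 2.97% of gated UMIs in BiDT and 16.3% in Ctrl, gave -1712 CPM, while the Retnla Ear2 macrophages (4.69% and 1.79%) gave 431 CPM and the Cxcl9- monocytes (20.2% and 12.1%) gave 380 CPM. As a result the Mgl2+ C1q cells held 5.60% of the chain UMIs in BiDT and 21% in Ctrl, and the Retnla Ear2 cells 11.7% and 2.37%. By member the within part ran from 86.0% for H2-Ob to 95.5% for H2-DMa.

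How much lay within subsets differed between schemes, though not in the order of their fineness. It was 93.8% with 3 classes, 96.8% without the Cxcl9 and Mgl2 divisions and 90.6% with cycling cells apart. With the same gates read on all UMIs of a cell it was 81.3%, and with gate thresholds 1 UMI higher 88.4%. It was 55.4% over 19 Leiden clusters made without the members and a list of interferon genes. There the ratio on the Ctrl mix was -0.44. The list does not hold every gene that answers to interferon, and the part of those left in was not tested. Those clusters also pool other cells, with chain levels of 6187 CPM in BiDT and 12548 CPM in Ctrl. Of these 19 clusters, 4 drew at least 90% of their cells from 1 library, so cell state and library cannot be told apart there. The chains were lower in BiDT in 17 of the 19 clusters, at least 1.5 times so in 9, with log2 ratios from -2.65 to 0.41. The clusters also divide the gates: 60.5% of the BiDT Mgl2- C1q macrophages lay in a cluster of 3842 BiDT and 81 Ctrl cells, and 24.7% of the Ctrl ones in a cluster of 113 BiDT and 2323 Ctrl cells. Likewise 33.9% of BiDT Cxcl9- monocytes lay in a cluster of 1741 BiDT and 57 Ctrl cells, at 869 CPM and 5434 CPM of the chains, whereas 37.3% of the Ctrl Cxcl9- monocytes lay in one of 874 BiDT and 1773 Ctrl cells led by Ace, Hp and Adgre4, at 4369 CPM and 3962 CPM (log2 ratio 0.14).

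The cells outside all gates, 7090 in BiDT and 5323 in Ctrl, had chain levels of 3301 CPM and 11878 CPM (-1.85), so they were not empty of class II. Taken in as 1 more subset, they moved the pooled log2 ratio to -1.20 and the ratio on the Ctrl mix to -0.96, with 89.6% within subsets. Leaving out every barcode found in both libraries gave 87.4% within subsets.

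The classical chains did not stand at one common ratio. H2-Aa, the alpha chain of I-A, was at 1845 CPM in BiDT and 3776 CPM in Ctrl over the gated cells (log2 ratio -1.03). H2-Ab1, its partner beta chain, was at 2755 CPM and 4630 CPM (-0.75). H2-Eb1, the beta chain of I-E, was at 1213 CPM and 3099 CPM (-1.35). The order of H2-Eb1, H2-Aa and H2-Ab1 was the same in dendritic cells (-0.57, -0.37 and -0.06), monocytes (-1.50, -1.23 and -1.05) and macrophages (-1.37, -1.02 and -0.71). In dendritic cells H2-Ab1 was at 7778 CPM in BiDT and 8091 CPM in Ctrl, and its ratio was above 0 in 3 alternatives of gating and depth.

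Because H2-Eb1 and H2-Ab1 are counted in the same cells, their ratio needs no scaling between libraries. There were 0.44 H2-Eb1 UMIs per H2-Ab1 UMI in BiDT and 0.67 in Ctrl (log2 ratio -0.60, interval -0.62 to -0.59). This value was lower in BiDT in 12 of 12 subsets, with every interval below 0, from 0.41 and 0.67 in Mgl2- C1q macrophages (-0.70) to 0.57 and 0.69 in cDC1 (-0.27). It was lower also in the Retnla Ear2 macrophages, at 0.47 and 0.66, whose summed chains were nearly level, and in the Ctsk Acp5 phagocytes, at 0.47 and 0.62, whose chains were higher. T or NK cells, taken here as a measure of free RNA from other cells, had 0.46 in BiDT and 0.70 in Ctrl, close to the macrophage values. With the T or NK cell level taken off both libraries, H2-Eb1 was at -1.33 and H2-Ab1 at -0.73 over the gated cells. H2-Aa per H2-Ab1 was 0.67 in BiDT and 0.82 in Ctrl, and lower in BiDT in 11 of 12 subsets.

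**Figure D3:**
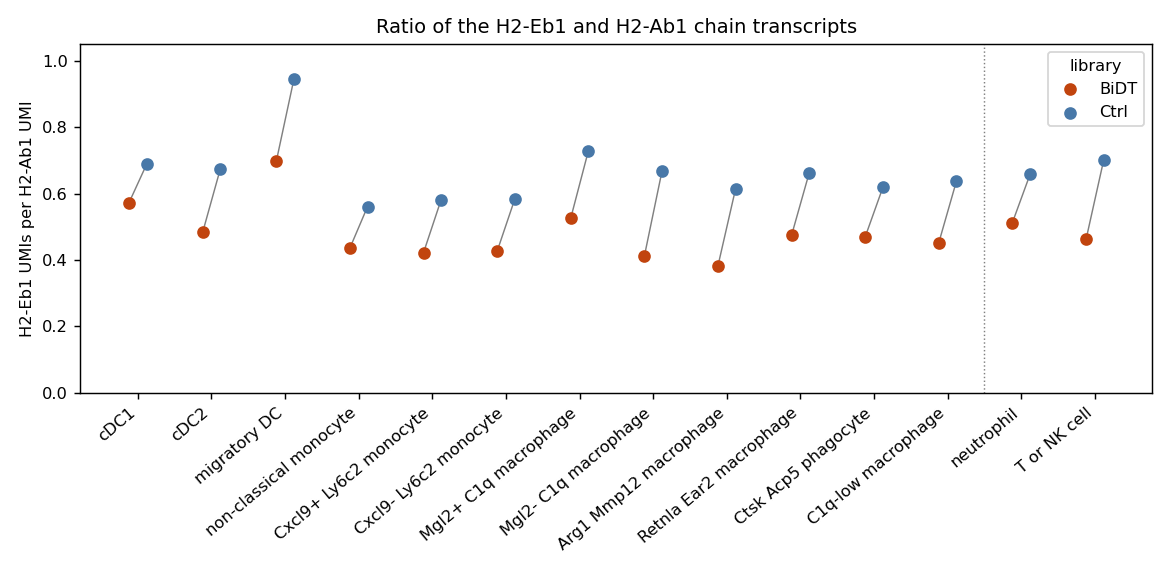
H2-Eb1 UMIs per H2-Ab1 UMI in each gated subset and in neutrophils and T or NK cells (right of the dotted line), for the BiDT and Ctrl libraries joined by a line. BiDT lies under Ctrl in all 12 subsets, from 0.41 and 0.67 in Mgl2- C1q macrophages to 0.57 and 0.69 in cDC1.

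Cd74, the chaperone on which class II pairs assemble, had the most UMIs of any member, at 5364 CPM in BiDT and 9666 CPM in Ctrl (log2 ratio -0.85). It was at 12712 CPM and 15237 CPM in dendritic cells (-0.26), at 3189 CPM and 6482 CPM in monocytes (-1.02), and at 5662 CPM and 9976 CPM in macrophages (-0.82). Its pattern was that of the chains, but with a slightly smaller difference: there were 0.92 Cd74 UMIs per chain UMI in BiDT and 0.84 in Ctrl, and this value was higher in BiDT in 9 of 12 subsets. In cDC1 Cd74 was at 18050 CPM in BiDT and 17707 CPM in Ctrl, and its interval spanned 0.

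Ciita, the transactivator, was counted at 36.4 CPM in BiDT and 60.4 CPM in Ctrl (log2 ratio -0.73, interval -0.81 to -0.66). It was at 168 CPM and 187 CPM in dendritic cells (-0.16, interval -0.33 to 0.02, but above 0 in 3 alternatives of gating), 33.7 CPM and 60.1 CPM in monocytes (-0.83), and 29.9 CPM and 52.6 CPM in macrophages (-0.82). In the Mgl2- C1q macrophages it was at 23.1 CPM in BiDT and 55.7 CPM in Ctrl (-1.27), its lowest ratio. In migratory dendritic cells it was at 129.5 CPM and 128.6 CPM (0.01, interval -0.30 to 0.31), while the chains there were at -0.45. Ciita per 1000 chain UMIs was 6.26 in BiDT and 5.25 in Ctrl and thus not lower in BiDT over the pooled cells. At 1000 UMIs per cell, 3.36% of BiDT and 5.56% of Ctrl gated cells had a Ciita UMI, against 0.557% and 0.790% of T or NK cells.

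H2-DMa and H2-DMb1, the chains of the peptide loader, showed smaller differences than the classical chains in monocytes and the opposite direction in dendritic cells. H2-DMa was at 365 CPM in BiDT and 659 CPM in Ctrl over the gated cells (-0.85), and H2-DMb1 at 362 CPM and 538 CPM (-0.57). In dendritic cells both log2 ratios were above 0: H2-DMb1 at 745 CPM in BiDT and 521 CPM in Ctrl (0.52), and H2-DMa at 799.7 CPM and 705 CPM (0.18). The H2-DMa ratio in dendritic cells was below 0 when cells were thinned or weighted equally, and in Leiden clusters (-0.43). DM per 100 chain UMIs was 13.2 in BiDT and 11.1 in Ctrl over the gated cells, 10.0 and 7.05 in dendritic cells, and 21.4 and 14.2 in monocytes. It was not higher in BiDT in the Mgl2+ C1q macrophages, at 10.0 and 11.8, in the Mgl2- C1q macrophages, at 11.2 and 11.2, or in the Ctsk Acp5 phagocytes, at 13.3 and 15.6.

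H2-DMb2, the second DM beta chain gene, had the widest range. It was at 41.7 CPM in BiDT and 81.4 CPM in Ctrl (-0.97), and at 15.1 CPM and 59.6 CPM in Mgl2- C1q macrophages (-1.98). In Retnla Ear2 macrophages it was at 315 CPM in BiDT and 165 CPM in Ctrl (0.94, interval 0.76 to 1.12), its highest level in any BiDT subset. H2-DMb1 and H2-DMb2 are close paralogs, and no source at hand says how reads were divided between them, so the level of each is uncertain.

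H2-Oa and H2-Ob, the chains of the DM inhibitor, had the fewest UMIs, at 4.01 CPM and 5.51 CPM in BiDT and 10.6 CPM and 11.6 CPM in Ctrl. In monocytes and macrophages H2-Oa was at 2.03 CPM and 2.44 CPM in BiDT and 6.46 CPM and 6.54 CPM in Ctrl. All lay under its level in T or NK cells (5.37 CPM in BiDT and 11 CPM in Ctrl). Neutrophils reached 152% of the monocyte and 126% of the macrophage H2-Oa level in BiDT, but 48.0% and 47.3% in Ctrl. The Ctrl values are thus background by 1 reference and not by the other, and H2-Oa transcription in T or NK cells themselves was not tested. H2-Ob in monocytes, of which T or NK cells reached 64.7% in BiDT and 39.2% in Ctrl, was no higher than in neutrophils. It was at 2.27 CPM in BiDT and 6.08 CPM in Ctrl, against 2.56 CPM and 7.52 CPM in neutrophils. The same held for H2-Ob in the Mgl2- C1q macrophages, at 1.93 CPM in BiDT and 7.27 CPM in Ctrl, and in the Arg1 Mmp12 macrophages, at 2.28 CPM and 7.09 CPM. Both genes stood above background in dendritic cells, where H2-Oa was at 43.4 CPM in BiDT and 89.2 CPM in Ctrl (-1.04, interval -1.37 to -0.72) and H2-Ob at 67.0 CPM and 77.5 CPM (-0.21, interval -0.49 to 0.06, but above 0 in 2 alternatives of gating). The dendritic subsets differed in direction. In cDC2, H2-Oa was at 25.9 CPM in BiDT and 95.8 CPM in Ctrl (-1.89) and H2-Ob at 39.3 CPM and 80.7 CPM (-1.04), whereas in cDC1 H2-Ob was at 223 CPM in BiDT and 146 CPM in Ctrl (0.61, interval 0.08 to 1.12). DO per 100 DM UMIs was accordingly 2.56 in BiDT and 7.38 in Ctrl in cDC2, and 16.3 and 11.5 in cDC1. The cDC2 gate held different cells in each library. A dendritic cell cluster took 35.7% of its BiDT and 62.4% of its Ctrl cells, and a cluster led by Retnla took 15.4% of its BiDT cells. The part of this in the DO and DM values was not tested.

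**Figure D4:**
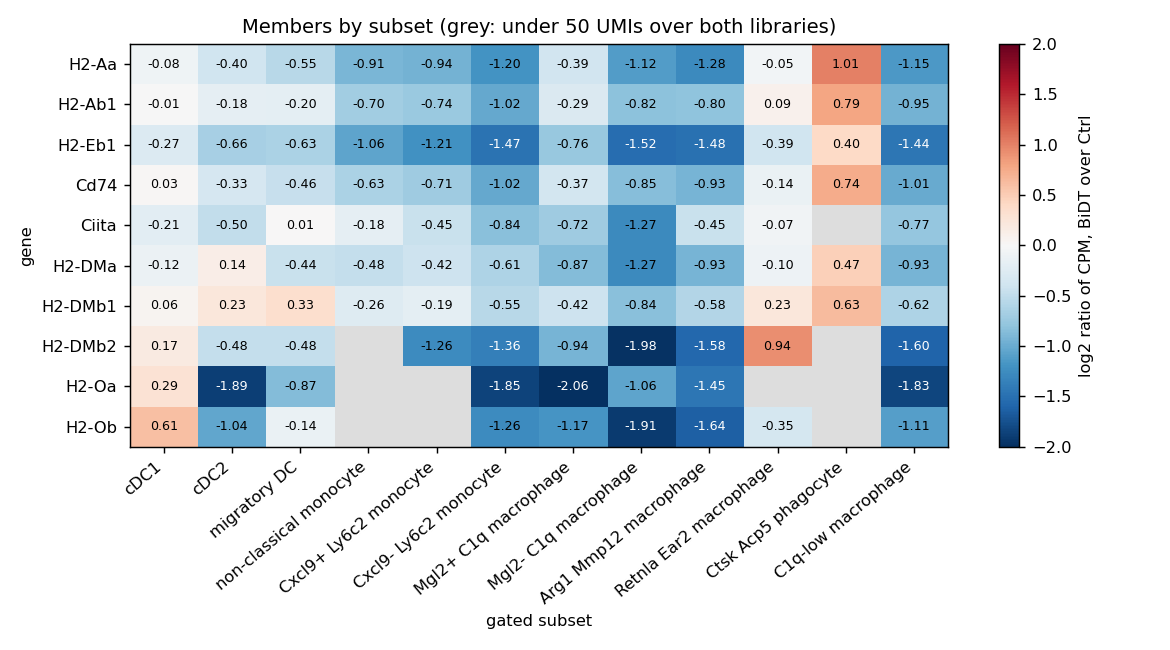
Log2 ratio (BiDT over Ctrl) of the 10 members in the 12 gated subsets, coloured and written in each cell; grey cells have under 50 UMIs over both libraries. Of the 110 pairs with at least 50 UMIs, 57 were at least 1.5 times lower in BiDT and 6 at least 1.5 times higher. Among all genes tested, the share at least 1.5 times lower ran from 7.46% in Arg1 Mmp12 macrophages to 19.7% in Ctsk Acp5 phagocytes. The share higher was 12.4% in cDC1, 11.5% in Retnla Ear2 macrophages and 15.6% in Ctsk Acp5 phagocytes, where the 6 pairs lie. The columns nearest to 0 are cDC1 and Retnla Ear2 macrophages.

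Of the 120 pairs of a member and a subset, 110 had at least 50 UMIs. Of these, 92 had a ratio below 0, and in 84 the whole counting interval was. The shares of all genes below 0 in these ways were not counted, so both counts are a description only. The median log2 ratio of all genes tested ran from -0.081 in cDC1 to 0.093 in Arg1 Mmp12 macrophages. By subset, members at least 1.5 times lower in BiDT numbered 10 of 10 in Mgl2- C1q macrophages (14.6% of all genes tested there) and in C1q-low macrophages (11.8%), 9 in Cxcl9- monocytes (11.1%), 8 in Arg1 Mmp12 macrophages (7.46%) and 6 in Mgl2+ C1q macrophages (17.1%). They numbered 5 of 8 measured members in Cxcl9+ monocytes (11.1%), 4 of 7 in non-classical monocytes (8.54%), 3 of 10 in cDC2 (10.1%) and 2 of 10 in migratory dendritic cells (9.12%). No member was in cDC1 (16.8%), none of 9 measured in Retnla Ear2 macrophages (9.12%) and none of 6 measured in Ctsk Acp5 phagocytes (19.7%). Members at least 1.5 times higher were H2-Ob in cDC1 (12.4% of all genes) and H2-DMb2 in Retnla Ear2 macrophages (11.5%). In Ctsk Acp5 phagocytes 4 of the 6 measured members were (15.6%), namely H2-Aa, H2-Ab1, Cd74 and H2-DMb1. H2-Oa and H2-Ob are in these counts also where H2-Oa was no higher than in T or NK cells and H2-Ob no higher than in neutrophils. Both were so, in both libraries, in Mgl2- C1q macrophages, Arg1 Mmp12 macrophages and Cxcl9- monocytes. H2-Oa alone was so in Mgl2+ C1q macrophages, and in BiDT only in C1q-low macrophages.

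**Figure D5:**
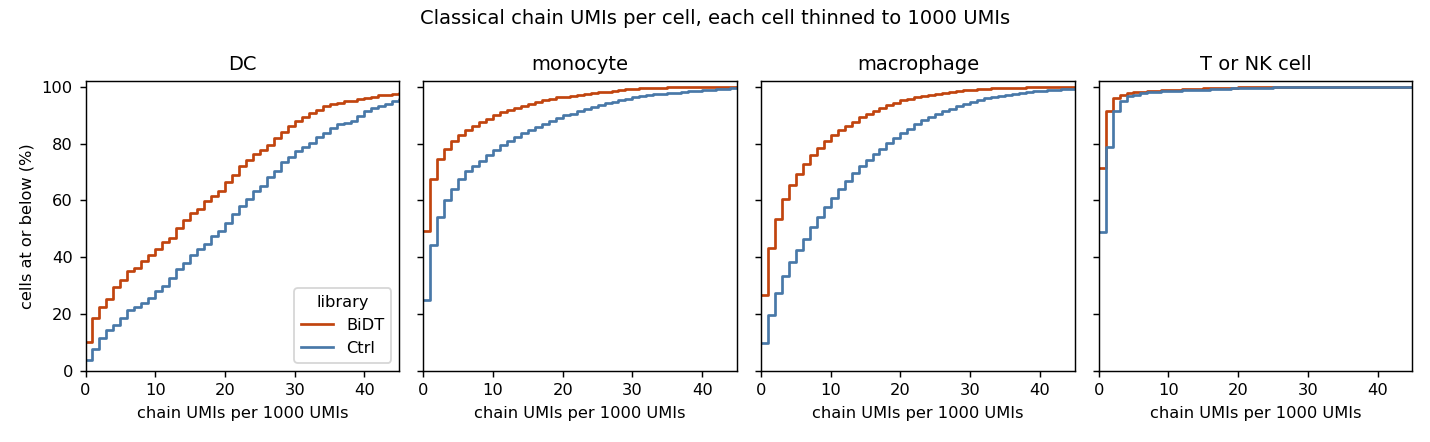
Cumulative share of cells (percent) by chain UMIs per cell, each cell thinned to 1000 UMIs, for the dendritic cell, monocyte and macrophage classes and T or NK cells, BiDT and Ctrl. The BiDT curves lie above the Ctrl curves, starting in the gated classes at 10.2% and 3.87% of dendritic cells, 49.3% and 24.8% of monocytes and 26.6% and 9.70% of macrophages with 0 chain UMIs.

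Per cell, both the share of cells with chain UMIs and the number per cell were lower in BiDT over the gated cells. At 1000 UMIs per cell, 31.2% of BiDT and 12.7% of Ctrl gated cells had 0 chain UMIs (14.9% and 2.33% before thinning). Cells with at least 10 chain UMIs made up 19.1% in BiDT and 40.2% in Ctrl, and those with at least 20 made up 6.57% and 18.4%. The median was 2 UMIs in BiDT and 6 in Ctrl over the gated cells, 13 and 20 in dendritic cells, 1 and 2 in monocytes and 2 and 7 in macrophages. In Retnla Ear2 macrophages it was 11 and 12, and there the share of cells with 0 chain UMIs was the lower one in BiDT, 3.98% against 6.44% in Ctrl. The monocyte medians lie near the level of single molecules, where T or NK cells stood at 0 in BiDT and 1 in Ctrl, with 71.4% and 48.7% of them at 0 UMIs and median depths of 2820 and 3236 UMIs.

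The chains in T or NK cells, at 686 CPM in BiDT and 1501 CPM in Ctrl (-1.13), set a level for free RNA. It need not be free RNA alone, and the part of doublets left after the filter was not tested. The Leiden clusters were made without the cells of this gate, so they cannot show what makes up this level. That level was 11.8% of the pooled gated level in BiDT and 13% in Ctrl, 3.80% and 6.75% of the dendritic cell level, and 21.3% and 20.2% of the monocyte level. Taking it off both libraries gave log2 ratios of -0.96 over the gated cells, -0.26 in dendritic cells, -1.23 in monocytes and -0.94 in macrophages, close to the ratios without it. Other values moved further: the chains in Retnla Ear2 macrophages to 0.0081 and in Ctsk Acp5 phagocytes to 2.09, and in Mgl2- C1q macrophages H2-DMb2 to -2.61 and H2-Ob to -3.40. Neutrophils held more, 1817 CPM in BiDT and 3907 CPM in Ctrl, which was 56.5% and 52.5% of the monocyte level.

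Few other genes of the pathway passed the fold of 1.5 downwards. Of 12 transcription factors that act on class II genes, none was at least 1.5 times lower in BiDT over the gated cells (median log2 ratio 0.08); under TMM scaling the median was -0.11 and Rfxap, at -0.61, was. Irf1, an interferon-induced factor that acts on Ciita, was at 1.24 and was at least 1.5 times higher in dendritic cells, monocytes and macrophages alike. Rfx5 and Rfxap, subunits of the X box complex, were at 0.13 and -0.42, the first of which is below 0 under TMM scaling. Of 11 genes of class II turnover and interferon gamma signalling, none was lower by that fold and 4 were higher: Socs1 (1.47), an inhibitor of JAK signalling, Il10ra (0.82) and Il10rb (0.59), receptor chains for interleukin 10, and March1 (0.66), a ubiquitin ligase that takes class II from the surface. Under TMM scaling Socs3, another inhibitor of JAK signalling, was lower by that fold (-0.65) and 2 were higher, Socs1 and Il10ra. In monocytes Cd83 (-0.62) and Socs3 (-0.68) were lower by it without that scaling. Ifngr1, the ligand-binding receptor chain for interferon gamma, was at -0.28, and Cd83, which opposes March1, at -0.34.

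Of 7 genes that make or free peptides for class II, Ifi30, the thiol reductase of the loading compartment, was the only one at least 1.5 times lower in BiDT over the gated cells (-1.02), and it was so in all 3 classes. The proteases Ctsb (1.23), Lgmn (1.19) and Ctsl (0.74) were higher by that fold, Ctsl not so under TMM scaling (0.55). Of 9 class I genes, 8 were at least 1.5 times higher in BiDT over the gated cells (median 0.80) and none lower, but 5 under TMM scaling (median 0.61), with H2-K1 at 1.23 and Nlrc5, the class I counterpart of Ciita, at 1.28. In dendritic cells 0 of the 9 passed that fold, where 12.2% of all genes passed it upwards. All 9 measured type I interferon response genes were higher in BiDT in each class, with a median log2 ratio of 3.86 over the gated cells. These lists were written with earlier results of these data known, so their counts describe these libraries only, beside the 9.69% of all genes that were lower and 18.6% that were higher. Both shares are without TMM scaling, so the counts under TMM scaling have no such share beside them.

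The chains were also set side by side within ranges of the summed UMIs of the 9 interferon genes per 1000, where they were lower in BiDT in each range of the 3 classes. By subset they were lower in 29 of 35 ranges with cells of both libraries, the other 6 being in Ctsk Acp5 phagocytes, cDC1 and Retnla Ear2 macrophages. Some of the 35 rest on few Ctrl cells, such as 2 Ctsk Acp5 phagocytes and 6 non-classical monocytes with 5 or more interferon UMIs, and 3 cDC1 with 2 to 4. In monocytes the log2 ratio was -0.62 among cells with 0 to 1 such UMIs, -1.04 with 2 to 4 and -1.82 with 5 or more. In macrophages it was -0.82, -1.01 and -1.04, and in dendritic cells -0.35, -0.28 and -0.53. The ranges were filled unequally: cells with 5 or more made up 59.7% of BiDT and 5.90% of Ctrl monocytes, 40.9% and 1.96% of macrophages, and 27.8% and 2.27% of dendritic cells, the last being 27 Ctrl cells. The part of the interferon response in the members' levels was not tested.

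Among 6861 genes with at least 50 CPM in 1 or more of 31 units (a subset, or another gated type, in 1 library, with at least 50 cells), those most like the summed chains by Pearson correlation of log2(CPM + 1) were Dapk1 and Tnip2 (r = 0.92 each), Lsr (0.91), Prcp (0.87), Gm2a and Olfm1 (0.85 each), and Plbd1, Mgl2, Cd83 and Cysltr1 (0.84 each). Mgl2 is also a gate gene. Outside the chains themselves, Cd74 (0.98), Ciita (0.96), H2-DMa (0.95), H2-DMb1 (0.91) and H2-DMb2 (0.89) followed the chains more closely than H2-Ob (0.76) and H2-Oa (0.66). The units share 2 libraries and their free RNA, so these values are a description over units and carry no p.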

How the data were processed

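The authors deposited raw UMI counts per gene and barcode for 1 BiDT and 1 Ctrl library (unit: counts), with no normalization; the submitters' processing notes name Cell Ranger 7.1.0 and the build GRCm39, while the barcodes have a form that Cell Ranger does not write, so the counting step is uncertain. Groups came from GEO's labels. Filters removed barcodes with under 300 genes, under 500 UMIs or over 10% mitochondrial UMIs. Scrublet's own threshold marked no doublet, so barcodes with a score of 0.15 or more were removed (2714 in BiDT, 2192 in Ctrl). Each cell was thinned to 1000 UMIs and gated on summed marker UMIs, with T, NK, B and mast cells, neutrophils, stromal or tumour cells and plasmacytoid dendritic cells gated out first. The counts of a gated unit were summed, divided by their total UMIs (CPM) and compared as log2 ratios with exact conditional binomial 95% intervals; no test or model was run, since each group is 1 library. Within and mix parts follow Kitagawa. The gene rule named all 10 members, pathway genes at least 1.5 times different in 2 or more of 3 classes or with textbook roles, and the 10 genes most like the chains. Members, lists and gates were chosen with earlier results of these data known. March1 and March8 are the files' symbols. One gene of the transcription factor list is not reported here. Counting and standardisation were tested on simulated data. Alternatives covered gates, clusters, scaling, weighting, filters, doublets and shared barcodes. Software was scanpy 1.11.5, which includes Scrublet, leidenalg 0.10.2, matplotlib 3.10.9 and, under Python 3.11.15, scipy 1.17.1.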

Additional observations from a re-analysis of the deposited data

Results flagged for a closer look

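Some values ran opposite to the members' lower level elsewhere, with counting intervals above 0 in 1 subset and below 0 in others; with 1 library per group the difference between subsets was not tested. In Ctsk Acp5 phagocytes the log2 ratio, BiDT over Ctrl, was 0.78 for the summed chains, 1.01 for H2-Aa, 0.79 for H2-Ab1, 0.40 for H2-Eb1, 0.74 for Cd74, 0.47 for H2-DMa and 0.63 for H2-DMb1. That subset has 42 BiDT and 115 Ctrl cells, and thinning turned its summed chains to -0.27. Its Ctrl chain level lies under that of neutrophils, which reached 174% of it, and with the T or NK cell level taken off the ratios were 2.09 for the chains, 2.28 for H2-Aa and 1.96 for H2-Ab1. In Retnla Ear2 macrophages the ratio was 0.94 for H2-DMb2, 0.23 for H2-DMb1 and 0.091 for H2-Ab1. In cDC2, a gate that held different cells in each library, it was 0.14 for H2-DMa and 0.23 for H2-DMb1. In migratory dendritic cells H2-DMb1 was at 0.33, and in cDC1 H2-Ob was at 0.61.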

How the results depend on the processing

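The direction of the 5 summed-chain results (all gated cells, all gated cells on the Ctrl mix, dendritic cells, monocytes, macrophages) was lower in BiDT in every alternative run, while most values moved by more than counting error. In that order of results, gates read on all UMIs gave -0.97, -0.72, -0.18, -1.18 and -0.93, thresholds 1 UMI higher -0.94, -0.80, -0.20, -1.14 and -0.91, and Leiden clusters -1.02, -0.44, -0.36, -1.0 and -0.93. TMM scaling gave -1.18, -0.95, -0.42, -1.25 and -1.19, and median-of-ratios scaling -1.19, -0.95, -0.42, -1.25 and -1.20. Counts thinned to 1000 UMIs gave -0.99, -0.87, -0.42, -1.08 and -1.02, and cells of at least 2000 UMIs -0.94, -0.78, -0.23, -1.19 and -0.92. Without doublet removal the values that moved were -1.01 over all gated cells, -0.84 on the Ctrl mix, -1.23 in monocytes and -1.0 in macrophages. With Malat1 at 1% of UMIs or less they were -0.96 over all gated cells, -0.77 on the Ctrl mix, -0.24 in dendritic cells and -0.90 in macrophages. A mitochondrial limit of 5% gave -1.0 over all gated cells, -0.82 on the Ctrl mix and -0.99 in macrophages. Weighting cells equally gave -0.86 on the Ctrl mix, -0.43 in dendritic cells, -1.08 in monocytes and -1.0 in macrophages. Other subset schemes gave, on the Ctrl mix, -0.91 with 3 classes and -0.84 with cycling cells apart. Alternatives chosen after seeing the data were the pool that takes in ungated cells (-1.20 over all cells, -0.96 on the Ctrl mix), the scheme without Cxcl9 and Mgl2 divisions (-0.98 on the Ctrl mix), leaving out barcodes found in both libraries (-0.28 in dendritic cells), TMM scaling of the pathway lists, 2 more settings of the per-cell shares and 8 of the 10 settings of the count of member and subset pairs. The share of genes at least 2 times lower was 3.4%. The count of member and subset pairs at least 1.5 times lower ran from 53 to 64 around 57.

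Values of single subsets or members that changed sign were the chains in cDC1 (0.047 with Malat1 at 1% or less), in Retnla Ear2 macrophages (0.0004 with gates on all UMIs, 0.010 with higher thresholds) and in Ctsk Acp5 phagocytes (-0.27 thinned, -0.15 with equal weights), H2-Ab1 in dendritic cells (0.085 with gates on all UMIs, 0.083 with higher thresholds, 0.0063 in cells of at least 2000 UMIs) H2-DMa in dendritic cells (-0.43 in Leiden clusters, -0.051 thinned, -0.078 with equal weights), Ciita in dendritic cells (0.083 with gates on all UMIs, 0.21 with higher thresholds, 0.12 in Leiden clusters) and H2-Ob in dendritic cells (0.20 with gates on all UMIs, 0.17 in Leiden clusters). Of the other such values, 211 moved by more than counting error and 175 did not; the cause was not tested. No paired analysis was possible because each group is 1 library. For the same reason no replicate could be left out, and animal to animal spread is unknown. Depth limits H2-Oa and H2-Ob outside dendritic cells, and subsets of few cells, cDC1 and Ctsk Acp5 phagocytes above all. In monocytes and macrophages H2-Oa lay under the T or NK cell level, and in monocytes H2-Ob lay under the neutrophil level.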
